A study of Mus musculus with 9 samples.

Results

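Genes of the urea cycle and of the ornithine and glutamine reactions beside it were followed in sorted mouse liver cells at 3 stages. The 10 genes were listed by name, and each was represented by the probe set with the highest mean over 9 arrays among those with a single gene symbol. Of the 10, 8 were measured among 19938 genes: Nags, Cps1, Slc25a15, Otc, Asl, Arg1, Oat and Glul. The probe annotation lists both probe sets of Ass1 together with Gm5424 and lists none for Gls2, so neither gene was analysed here. All samples were livers of Cxcl12DsRed/+ mice on C57BL/6, which carry a red reporter at a single allele of the chemokine gene Cxcl12, and cells negative for CD45 and Ter119 and positive for the reporter were sorted. There were 3 arrays each from the embryonic stage E15.5 and from postnatal days P5 and P10. The labels call them independent replicates and do not say whether each is a separate animal or a pool, so the spread behind every p-value here may be partly technical.

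The urea cycle turns toxic ammonia into urea for excretion, and in mammals the complete pathway runs mainly in hepatocytes. Its first steps lie in mitochondria, where carbamoyl phosphate is made and joined to ornithine, and its later steps lie in the cytosol, where arginine is formed and split into urea and ornithine. In the adult liver lobule the cycle enzymes are most abundant around the portal vein, while glutamine synthetase and ornithine aminotransferase are most abundant around the central vein. Nags, Cps1, Slc25a15, Otc, Asl and Arg1 are called periportal below, Nags and Slc25a15 by their place in the cycle, and Oat and Glul pericentral. Sorted cells carry no position, so the zones are background knowledge only.

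Promoters of 6 of the 10 genes matched by symbol in a RefSeq table of build GRCm38.p6, each covering 250 bases before to 50 bases after a transcription start. Those of 4 genes are shown as examples of different courses by the calls with all arrays. Otc and Nags were higher at each later stage, Glul over the first interval only and Oat over the second only. The calls of Otc and Nags in the second interval and of Oat in the first changed with some arrays left out, as given below. Capitals mark matches, on either strand, to 6 motifs: TATAAA (the TATA box), TTNNGNAA (C/EBP), CAAAGTCCA (HNF4), TCAAAG (TCF/LEF), TGACG (CREB) and an HNF1 motif. Each motif was searched on its own, so matches to different motifs could overlap. Otc lies at chrX:10252055-10252354 (plus strand), Nags at chr11:102145263-102145562 (plus strand), Oat at chr7:132576349-132576648 (minus strand) and Glul at chr1:153899679-153899978 (plus strand).
Otc: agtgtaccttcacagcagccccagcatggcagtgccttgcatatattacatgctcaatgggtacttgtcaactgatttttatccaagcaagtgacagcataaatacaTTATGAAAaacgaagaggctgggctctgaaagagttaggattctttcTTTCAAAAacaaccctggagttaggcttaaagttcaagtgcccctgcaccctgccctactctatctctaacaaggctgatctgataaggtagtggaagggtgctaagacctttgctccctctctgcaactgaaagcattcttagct
Nags: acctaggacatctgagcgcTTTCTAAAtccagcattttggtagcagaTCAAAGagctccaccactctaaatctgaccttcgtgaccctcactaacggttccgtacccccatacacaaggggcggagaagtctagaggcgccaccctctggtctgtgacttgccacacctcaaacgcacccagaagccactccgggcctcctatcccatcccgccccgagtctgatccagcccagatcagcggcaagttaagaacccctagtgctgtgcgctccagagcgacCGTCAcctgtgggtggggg
Oat: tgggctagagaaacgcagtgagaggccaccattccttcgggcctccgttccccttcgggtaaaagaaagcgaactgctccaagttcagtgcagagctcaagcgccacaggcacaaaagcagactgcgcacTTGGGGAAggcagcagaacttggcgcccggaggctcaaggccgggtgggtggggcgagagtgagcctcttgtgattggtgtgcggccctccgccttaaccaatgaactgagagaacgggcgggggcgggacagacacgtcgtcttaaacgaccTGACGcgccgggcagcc
Glul: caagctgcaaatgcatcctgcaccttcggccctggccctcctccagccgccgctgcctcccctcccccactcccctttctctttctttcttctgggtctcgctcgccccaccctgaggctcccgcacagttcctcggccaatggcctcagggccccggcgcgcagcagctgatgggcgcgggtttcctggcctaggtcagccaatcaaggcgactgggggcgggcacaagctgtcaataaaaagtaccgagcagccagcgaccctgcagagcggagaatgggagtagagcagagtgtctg
The Otc promoter held 2 matches to TTNNGNAA, at -143 and -96 from the start. The Nags promoter held 1 match each to TTNNGNAA, TCAAAG and TGACG, and the Oat promoter 1 each to TTNNGNAA and TGACG. None of the 6 motifs lay in this window of Glul. The same held for both promoters of Slc25a15, whose RNA was also higher at each later stage, and for that of Ass1, which are not shown. A link between these motifs and the courses was not tested. Of 32851 promoters in the table, 40.7% held TTNNGNAA, 20.8% TGACG, 16% TCAAAG, 13.6% TATAAA, 0.475% CAAAGTCCA and 0.0609% the HNF1 motif.

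Values are log2 signals after robust multi-array averaging (RMA), on which a difference of 1 is a doubling, and array medians lay between 6.22 and 6.45. Although the sort was for stroma, the defining hepatocyte gene Alb lay at 13.03 to 13.22 on all arrays, where the highest value of any probe set was 14.03. The mean log2 signal of 16 general hepatocyte genes was 11.87 to 11.91 on the E15.5 arrays, 12.39 to 12.45 on the P5 arrays and 11.92 to 12.20 on the P10 arrays. That of 12 hepatic stellate cell genes was 9.93 to 10.13 on the E15.5 arrays, 8.27 to 8.64 on the P5 arrays and 7.995 to 8.26 on the P10 arrays. In bulk samples fewer cells of a type and less RNA per cell cannot be told apart, and which of the sorted cells carried the RNAs below was not tested. Macrophages can also express Arg1. Their list averaged 5.49 to 5.51 on the E15.5 arrays, 5.39 to 5.53 on the P5 arrays and 5.38 to 5.47 on the P10 arrays, and Ptprc, the CD45 gene, lay at 4.97 to 5.20, where percentile 30 of all values was 5.68. Sinusoidal endothelial genes averaged 8.47 and 8.71 on P5 arrays 2 and 3, 6.82 on P5 array 1 and 6.98 to 7.53 on the 6 arrays of the other stages. The Y-linked gene Eif2s3y was high on 1 E15.5 array (array 3, 7.94), 2 P5 arrays (arrays 2 and 3, 8.98 and 9.24) and 1 P10 array (array 1, 8.97). It lay at 3.96 to 4.14 elsewhere. Xist, which is expressed from the inactive X chromosome of females, lay at 10.51, 10.64 and 10.16 on the E15.5 arrays, so array 3 of that stage carried both signals. On the P5 arrays Xist lay at 8.745, 6.16 and 5.03, and on the P10 arrays at 5.09, 7.81 and 7.98. Whether any postnatal array also mixed the sexes was not tested.

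**Figure D1:**
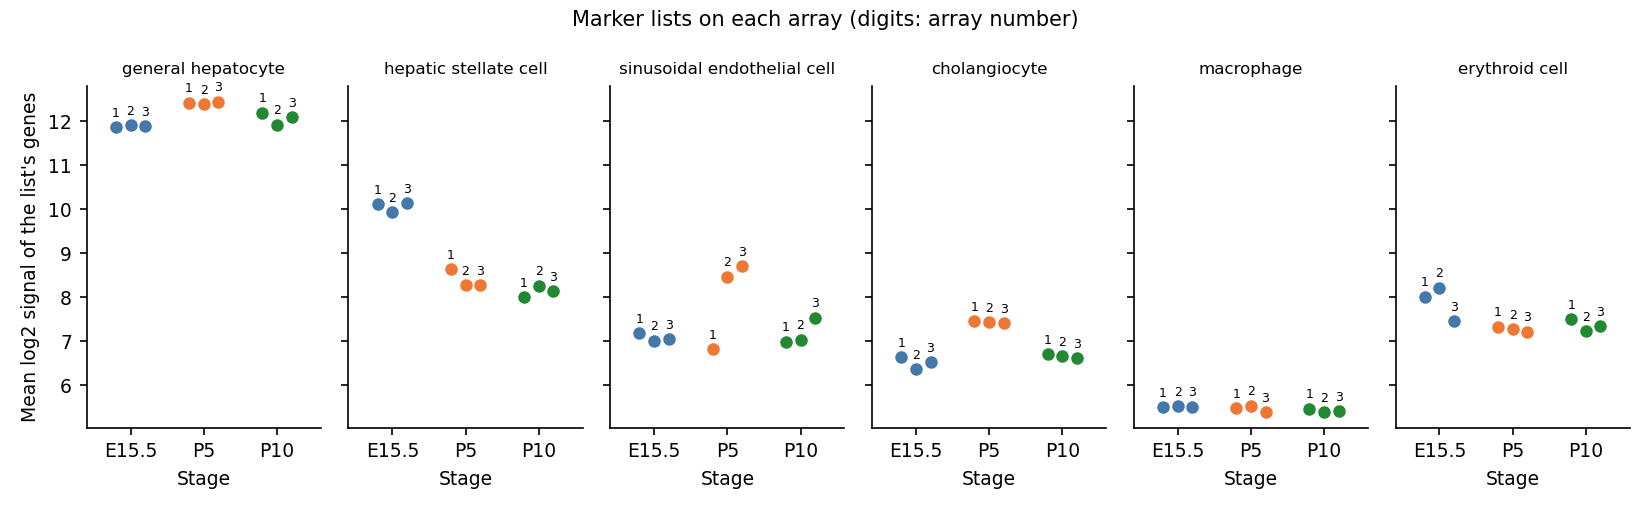
Mean log2 signal (y axis) of the measured genes of 6 cell type marker lists on each array, by stage (x axis), with points for single arrays. The hepatocyte list stays between 11.87 and 12.45, the stellate list is highest at E15.5, and P5 arrays 2 and 3 stand above the others in the sinusoidal endothelial list.

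At P5 all 6 measured genes of the cycle were higher than at E15.5, by 4.59-fold to 18.4-fold, as was the glutamine synthetase gene Glul, while Oat did not pass the test. In all, 7 of 8 genes were higher and 0 lower in limma at an adjusted p under 0.05, where 17.9% of all genes were called higher and 17.7% lower. In those 7 the P5 arrays lay wholly above the E15.5 arrays, as in 24.1% of all genes. The median difference was 2.45 over the 6 periportal genes and 0.03 over all genes. In the same comparison 10 of 16 hepatocyte genes rose and 0 fell (median 0.29, with 5 rising under quantile normalisation), and 12 of 12 stellate genes fell (median -2.01). Of the hepatocyte genes, Alb, Ttr, Apoa1, Apoa2, Trf and Rbp4 lay above percentile 99 of all values (12.29) on all arrays. Whether the scale is compressed there was not tested. Hnf4a, the lowest of the list at E15.5, rose by 2.45 ± 0.195. Of the next lowest, F2 (1.09 ± 0.10) and Apoh (1.17 ± 0.12) rose, and Fga (0.16 ± 0.14) and Apob (0.06 ± 0.14) did not pass. Each of the 8 genes also differed among the 3 stages by limma's moderated F test, which called 38.3% of all genes.

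Nags makes N-acetylglutamate, the activator that the first enzyme of the cycle requires. Its log2 signals were 6.92, 6.65 and 6.75 on the E15.5 arrays, 9.16, 8.86 and 9.07 on the P5 arrays and 9.53, 9.48 and 9.48 on the P10 arrays. The 3 stages did not overlap. Nags was higher at P5 than at E15.5 by 2.25 ± 0.095 on the log2 scale (SE, n = 3 per stage, 4.77-fold, limma adjusted p = 6.69e-07).

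Cps1 encodes that first enzyme, which makes carbamoyl phosphate from ammonia and bicarbonate in mitochondria. It had 5.53, 5.96 and 7.27 on the E15.5 arrays, 10.43, 10.50 and 10.43 on the P5 arrays and 11.78, 11.24 and 11.55 on the P10 arrays. E15.5 array 3 stood above the other fetal arrays, and the highest fetal value lay 3.16 below the lowest P5 value. The difference between P5 and E15.5 was 4.20 ± 0.38 (18.4-fold, limma adjusted p = 5.28e-05), at rank 72 of 19938 genes ordered from the largest rise. It was 4.71 without E15.5 array 3. The SD of Cps1 was 0.91 over the E15.5 arrays, 0.040 over those of P5 and 0.27 over those of P10.

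Slc25a15 is the carrier that brings ornithine into mitochondria. It had 8.10, 8.17 and 7.67 on the E15.5 arrays, 10.41, 10.16 and 10.15 on the P5 arrays and 11.09, 10.93 and 11.08 on the P10 arrays, with no overlap between stages. Its P5 values were 2.26 ± 0.14 above those of E15.5 (4.79-fold, limma adjusted p = 4.68e-06).

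Otc joins ornithine and carbamoyl phosphate into citrulline. Its signals were 8.95, 9.03 and 8.78 on the E15.5 arrays, 11.45, 11.61 and 11.65 on the P5 arrays and 11.99, 12.04 and 12.11 on the P10 arrays. The stages were again separate, and the difference at P5 was 2.65 ± 0.084 (6.27-fold, limma adjusted p = 1.55e-07).

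Asl encodes the lyase that releases arginine and fumarate in the cytosol. It had 8.34, 8.31 and 8.35 on the E15.5 arrays, 10.66, 10.41 and 10.53 on the P5 arrays and 11.26, 11.17 and 11.07 on the P10 arrays. Each stage lay above the one before, and P5 exceeded E15.5 by 2.20 ± 0.078 (4.59-fold, limma adjusted p = 2.73e-07).

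Arg1 is the arginase that splits arginine into urea and ornithine. Its log2 signals were 6.97, 7.14 and 7.35 on the E15.5 arrays, 11.32, 11.32 and 11.30 on the P5 arrays and 11.87, 11.89 and 11.78 on the P10 arrays. The fetal arrays were far below the rest, and the rise to P5 was 4.16 ± 0.093 (17.8-fold, limma adjusted p = 2.91e-08), at rank 74 of all genes. Arg2, the arginase of many tissues outside the liver, lay at 5.09 to 5.15 on all 9 arrays.

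Glul encodes glutamine synthetase, which fixes ammonia onto glutamate. It had 11.10, 10.79 and 10.62 on the E15.5 arrays, 13.06, 12.93 and 12.93 on the P5 arrays and 12.96, 13.03 and 13.02 on the P10 arrays. The postnatal stages overlapped each other, and both lay wholly above E15.5. Glul was 2.14 ± 0.11 higher at P5 than at E15.5 (4.4-fold, limma adjusted p = 2.18e-06). Its postnatal signals lay above percentile 99 of all values (12.29), and whether the scale is compressed there was not tested. The other single-symbol probe set of Glul, at 11.65 to 11.89 at P5 and 8.72 to 9.20 at E15.5, gave a difference of 2.81 ± 0.13.

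Oat encodes ornithine aminotransferase, which moves the amino group of ornithine on towards glutamate. Its log2 signals were 9.70, 9.52 and 9.82 on the E15.5 arrays, 10.39, 9.14 and 9.32 on the P5 arrays and 11.96, 11.68 and 11.98 on the P10 arrays. At P5 the first array lay above all fetal values and the other 2 below them, while every P10 array lay above all arrays of the earlier stages. The difference between P5 and E15.5 was -0.06 ± 0.29 (95% interval -0.73 to 0.60, limma adjusted p = 0.894). Without P5 array 1 Oat was lower at P5 (-0.45 ± 0.13, adjusted p = 0.0323). Without P5 arrays 2 and 3, a choice made after seeing the data that leaves a lone P5 array assumed to vary like the other groups, it was higher (0.71 ± 0.16, adjusted p = 0.0211). P5 arrays 2 and 3 were also those with the higher sinusoidal endothelial signal and the Y-linked signal, and the part of either in the Oat values was not tested. The arrays with the Y-linked signal at the other stages had the highest of the 3 Oat values at E15.5 and the middle one at P10. Each was a single array, and that of E15.5 also carried the Xist signal.

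**Figure D2:**
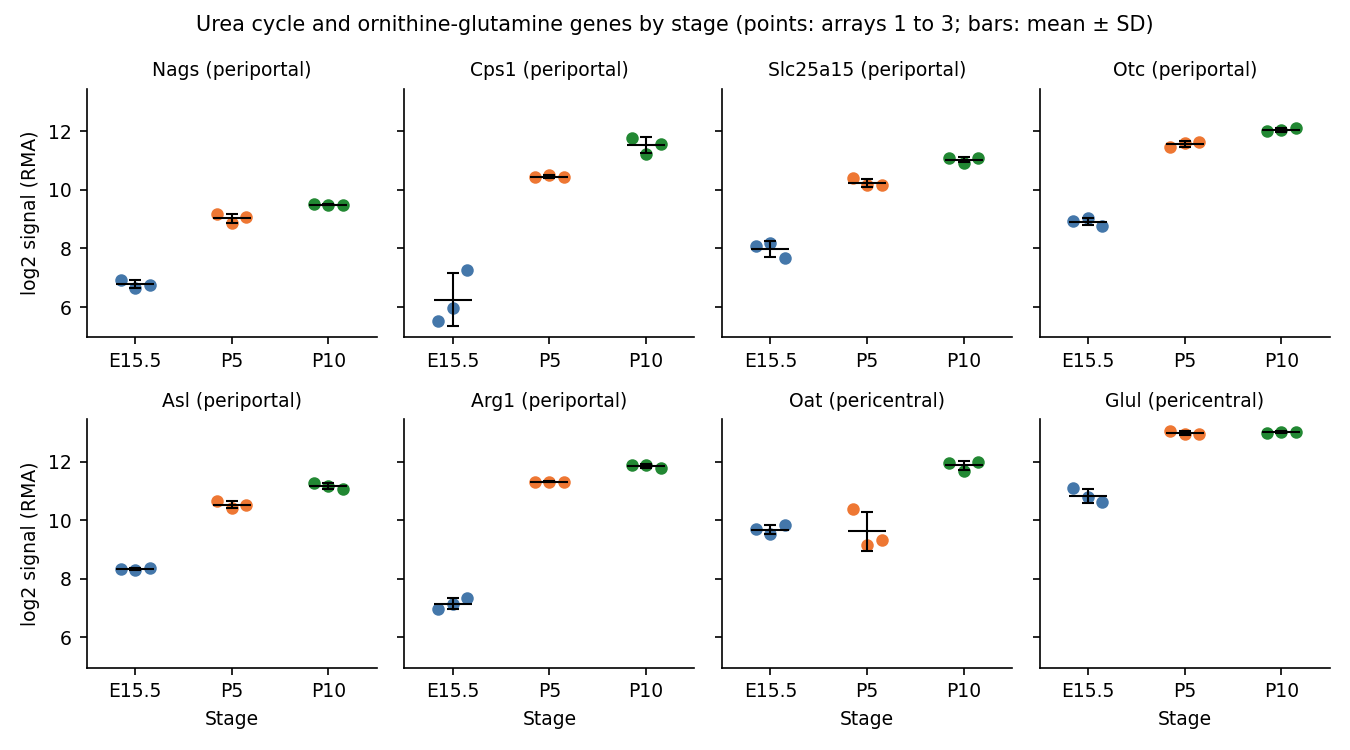
Log2 signal (y axis) of the 8 measured genes at E15.5, P5 and P10 (x axis). Points are single arrays, and bars give mean ± SD (n = 3). In the 6 periportal genes the arrays of the 3 stages do not overlap, Glul overlaps between P5 and P10, and at P5 Oat has 1 array above the other 2.

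At P10 most cycle genes were higher again than at P5, by smaller amounts, Oat was 4.77-fold higher and Glul did not pass the test. Of 8 genes 6 were higher and 0 lower in limma at an adjusted p under 0.05, where 2.76% of all genes were called higher and 2.89% lower. In 7 of 8, all but Glul, the P10 arrays lay wholly above the P5 arrays, as in 10.6% of all genes. In the same interval 0 general hepatocyte genes rose and 8 of 16 fell (median -0.32), among them the apolipoprotein gene Apob (-0.97 ± 0.14, adjusted p = 0.00656) and the prothrombin gene F2 (-0.58 ± 0.10, adjusted p = 0.0168). Centring each array on that list moved the median of all genes to 0.42, and all 8 genes were then called higher at P10. With that centring 15006 of 19938 genes were called, 97.8% of them higher, so this count says little about the 8 genes.

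Slc25a15 was 0.79 ± 0.14 higher at P10 than at P5 (1.73-fold, limma adjusted p = 0.0147) and Asl 0.63 ± 0.078 (1.55-fold, adjusted p = 0.00381). Arg1 was higher by 0.53 ± 0.093 (1.45-fold, adjusted p = 0.0156), Otc by 0.48 ± 0.084 (1.4-fold, adjusted p = 0.0156) and Nags by 0.47 ± 0.095 (1.38-fold, adjusted p = 0.0296). These 5 rises were all under 2-fold. For Cps1 the difference of 1.07 ± 0.38 (2.1-fold, 95% interval 0.19 to 1.95) did not pass (adjusted p = 0.174), although its lowest P10 array lay 0.74 above its highest P5 array. It passed without E15.5 array 3 (adjusted p = 0.0131) and in a fit of the P5 and P10 arrays alone (adjusted p = 0.0192), since the error of the full fit includes the fetal spread.

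Some of these calls were lost when 1 array was left out. Of all genes, 1126 were called at P10 against P5 with all arrays, and 770, 586 and 730 without P10 array 1, 2 or 3. Nags did not pass without P5 array 2 (adjusted p = 0.0682), P10 array 1 (0.0836), P10 array 2 (0.0903) or P10 array 3 (0.0786). Arg1 did not pass without P10 array 1 (0.051) or 2 (0.0635), Otc without P10 array 2 (0.0569) or 3 (0.0563), and Slc25a15 without P10 array 3 (0.0512). With any 1 array left out the differences stayed within 0.38 to 0.53 for Nags, 0.51 to 0.57 for Arg1, 0.42 to 0.52 for Otc and 0.75 to 0.88 for Slc25a15. Asl and Oat passed in all 9 of these fits. Without P5 arrays 2 and 3 together, Nags (0.169), Arg1 (0.119) and Slc25a15 (0.153) did not pass.

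The rise of Oat at P10 was 2.25 ± 0.29 (limma adjusted p = 0.00422), at rank 5 of 19938 genes ordered from the largest rise. It was 2.64 ± 0.13 without P5 array 1 and 1.49 ± 0.16 (adjusted p = 0.0173) without P5 arrays 2 and 3. Glul differed by 0.03 ± 0.11 between P10 and P5 (adjusted p = 0.937), with a 95% interval of -0.23 to 0.29. Its other probe set gave 0.12 ± 0.13.

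**Figure D3:**
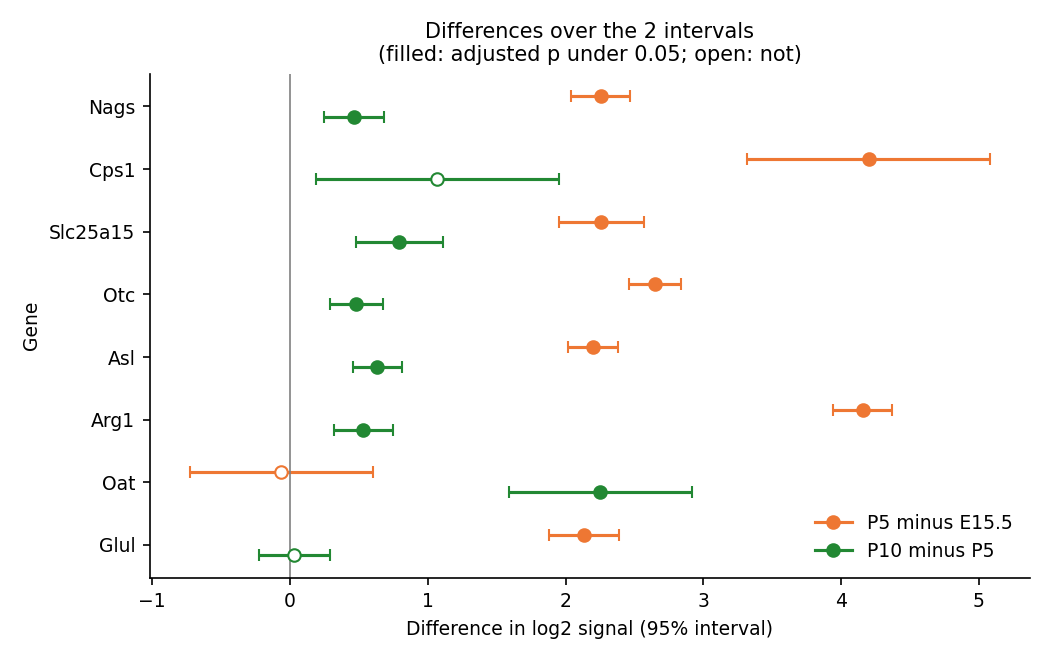
Difference in log2 signal (x axis, with 95% intervals) for P5 minus E15.5 and P10 minus P5 in each measured gene (y axis), filled where the adjusted p was under 0.05. The 6 periportal genes have the larger difference in the first interval, Glul lies at 0.03 in the second, and Oat lies at -0.06 in the first and 2.25 in the second.

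Between P10 and E15.5 all 8 genes were higher at P10 and 0 lower in limma, where 20.1% of all genes were called higher and 18.6% lower, and in each the P10 arrays lay wholly above the E15.5 arrays, as in 27.9% of all genes. This comparison shares its arrays with the other 2. Cps1 differed by 5.27 ± 0.38 (38.6-fold), Arg1 by 4.69 ± 0.093 (25.8-fold) and Otc by 3.13 ± 0.084 (8.75-fold). Slc25a15 differed by 3.05 ± 0.14 (8.31-fold), Asl by 2.83 ± 0.078 (7.13-fold) and Nags by 2.72 ± 0.095 (6.59-fold). Of the pericentral pair, Oat differed by 2.19 ± 0.29 (4.56-fold) and Glul by 2.17 ± 0.11 (4.49-fold).

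The pericentral pair differed from each other in the timing of their means. The part of the log2 difference between P10 and E15.5 already present at P5 was 98.6% for Glul and -2.88% for Oat, whose P5 mean was slightly below its E15.5 mean. In the periportal genes it was 88.6% for Arg1, 84.6% for Otc, 82.9% for Nags, 79.7% for Cps1, 77.6% for Asl and 74% for Slc25a15. These shares are given without errors. The P5 minus E15.5 difference of Oat was -0.45 without P5 array 1 and 0.71 without P5 arrays 2 and 3. The postnatal Glul signals lay above percentile 99 of all values, where compression of the scale was not tested. The median difference of the periportal genes was 2.45 at P5 and 3.09 at P10 relative to E15.5. That of the pericentral pair was 1.04 and 2.18, where 1.04 lies between Oat (-0.06) and Glul (2.14) and describes neither. The difference between the zones was not tested. Of all genes, 1.58% were called higher both at P5 against E15.5 and at P10 against P5, and among the members these were Nags, Slc25a15, Otc, Asl and Arg1.

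Other known markers of the zones were set beside them. Of 11 other measured periportal genes, 10 rose and 0 fell at P5 relative to E15.5 (median 3.78), including the gluconeogenic genes Fbp1 (7.10 ± 0.068, adjusted p = 4.06e-10) and Pck1 (5.64 ± 0.14, adjusted p = 4.81e-08), Tat, the first enzyme of tyrosine breakdown (5.98 ± 0.12, adjusted p = 2e-08), and the cytochrome gene Cyp2f2 (3.78 ± 0.14, adjusted p = 3.6e-07). Of 16 other pericentral genes, 12 rose and 0 fell (median 1.33), including the cytochrome genes Cyp2e1 (7.17 ± 0.084, adjusted p = 1.3e-09) and Cyp1a2 (4.46 ± 0.29, adjusted p = 7.14e-06), Rgn, a step of vitamin C synthesis in mice (1.86 ± 0.088, adjusted p = 1.25e-06), and the transcription factor gene Tbx3 (1.66 ± 0.097, adjusted p = 3.84e-06). At P10 against E15.5 the counts were 10 higher and 1 lower for the periportal list (median 4.12) and 13 higher and 0 lower for the pericentral list (median 1.99). In each list the E15.5 means of 4 genes lay under percentile 30 of all values (5.68). These included Fbp1 and Tat (periportal) and Cyp2e1 and Cyp1a2 (pericentral), so the size of such differences from E15.5 is uncertain.

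At P10 against P5 the periportal list had 3 higher and 1 lower (median 0.33). Hal, which breaks down histidine (0.95 ± 0.12, adjusted p = 0.00427), Pck1 (0.99 ± 0.14, adjusted p = 0.00619) and Tat (0.64 ± 0.12, adjusted p = 0.0203) rose, and the epithelial cadherin gene Cdh1 fell (-0.66 ± 0.14, adjusted p = 0.0303). The pericentral list had 2 higher and 0 lower of 16 (median 0.18), Slc1a2 and Cyp2c29. Centring on the hepatocyte list, which moved the median of all genes to 0.42, gave 8 higher and 0 lower in the periportal list and 11 and 0 in the pericentral list. It called 15006 of 19938 genes, 97.8% of them higher.

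Slc1a2 encodes a glutamate transporter of the cells around the central vein. It had 6.01, 6.06 and 5.97 on the E15.5 arrays, 6.11, 6.23 and 6.10 on the P5 arrays and 7.66, 6.82 and 7.07 on the P10 arrays. The P10 arrays lay above all others. The difference between P10 and P5 was 1.04 ± 0.18 (adjusted p = 0.0161), and that between P5 and E15.5 was 0.14 ± 0.18 (adjusted p = 0.622). Cyp2c29, a drug-metabolising cytochrome, had 4.68, 4.65 and 4.62 on the E15.5 arrays, 5.35, 4.99 and 5.12 on the P5 arrays and 9.20, 9.43 and 10.15 on the P10 arrays (4.44 ± 0.22, adjusted p = 0.000128 for P10 minus P5). Its E15.5 and P5 values lay under percentile 30 of all values, so the size of this difference is uncertain. Rhbg, an ammonium transporter of the same zone, was higher at P5 than at E15.5 (0.75 ± 0.21, adjusted p = 0.0234) and did not pass between P10 and P5 (-0.62 ± 0.21, adjusted p = 0.153).

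Glul and Axin2 are known targets of Wnt signalling in hepatocytes, which maintains the pericentral programme in the adult. Axin2 rose at P5 (0.92 ± 0.21, adjusted p = 0.00863) and did not pass between P10 and P5 (-0.03 ± 0.21, adjusted p = 0.976). Some other Wnt targets on the pericentral list are named here after their values were seen. Sp5 rose at P5 (0.90 ± 0.12, adjusted p = 0.000437), and Lgr5 (-0.06 ± 0.22, adjusted p = 0.853) and Rnf43 (0.49 ± 0.27, adjusted p = 0.214) did not pass. These are not all the Wnt targets on that list, of which 12 of 16 genes rose and 0 fell at P5. Of 9 listed Wnt ligands, R-spondins and pathway genes, 0 rose and 6 fell at P5 (median -0.43). The list holds activators and inhibitors of the pathway, so its counts and median do not give the direction of Wnt signalling. The count that fell was 4 after centring on all genes, 3 after centring on ribosomal protein genes and 8 after centring on the hepatocyte list. The last centring called 16054 of 19938 genes, 10.3% of them higher. Those that fell included Rspo3, an enhancer of Wnt signals (-3.41 ± 0.12, adjusted p = 2.91e-07), and the ligand gene Wnt2 (-1.22 ± 0.26, adjusted p = 0.0061). Also lower were Apc, an inhibitor of the pathway (-0.47 ± 0.13, adjusted p = 0.0188), and Tcf7l1, which can act as a repressor in it (-0.53 ± 0.13, adjusted p = 0.011). The same held for Tcf7l2 (-0.43 ± 0.14, adjusted p = 0.0407) and Ctnnb1 (-0.25 ± 0.085, adjusted p = 0.0481). At P10 the counts were 0 higher and 5 lower against E15.5 (median -0.46). Against P5 they were 0 and 0 in limma (median -0.04, 2 at an unadjusted p under 0.05). Centring on the hepatocyte list called 5 higher against P5, where 97.8% of 15006 calls among all genes were higher.

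The cycle takes nitrogen from aspartate as well as from ammonia, and 27 of 30 listed genes of these routes were measured. At P5 against E15.5, 15 rose, 3 fell and 9 did not pass (median 0.75). The mitochondrial aspartate carrier gene Slc25a13 (3.26 ± 0.12, adjusted p = 3.66e-07) and Got1, a cytosolic enzyme that interconverts aspartate and glutamate (3.08 ± 0.15, adjusted p = 1.25e-06), rose. So did Aqp9, a channel for urea and glycerol (4.35 ± 0.16, adjusted p = 3.6e-07), and Aldh4a1, which completes the step from proline and ornithine to glutamate (2.36 ± 0.085, adjusted p = 2.91e-07). Glud1, which releases ammonia from glutamate (0.99 ± 0.095, adjusted p = 6.82e-05), and the glutamine transporter gene Slc38a3 (2.43 ± 0.21, adjusted p = 3.52e-05) rose too. The amino acid transporter gene Slc38a2 fell (-1.49 ± 0.14, adjusted p = 6.88e-05), as did Cad, which makes carbamoyl phosphate for pyrimidines (-0.41 ± 0.11, adjusted p = 0.019), and Odc1, which draws ornithine into polyamines (-0.21 ± 0.066, adjusted p = 0.0363).

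Car5a is the mitochondrial carbonic anhydrase that supplies bicarbonate to Cps1. It had 5.49, 5.22 and 5.77 on the E15.5 arrays, 8.49, 8.20 and 8.58 on the P5 arrays and 10.09, 10.01 and 9.73 on the P10 arrays. The stages did not overlap, and it rose in both intervals (2.93 ± 0.16, adjusted p = 2.85e-06 for P5 minus E15.5 and 1.52 ± 0.16, adjusted p = 0.00198 for P10 minus P5). Its E15.5 mean lay under percentile 30 of all values (5.68), so the size of the first difference is uncertain.

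At P10 against P5, 8 of the 27 rose, 1 fell and 18 did not pass (median 0.05). The alanine aminotransferase gene Gpt (1.40 ± 0.18, adjusted p = 0.0042), Got1 (1.12 ± 0.15, adjusted p = 0.00469) and Aldh4a1 (0.63 ± 0.085, adjusted p = 0.00543) rose, and the asparagine synthetase gene Asns fell (-0.67 ± 0.13, adjusted p = 0.0215). At P10 against E15.5, 17 rose and 4 fell (median 1.16). Those that fell were Slc38a2, Cad, the proline synthesis gene Aldh18a1 (-1.07 ± 0.20, adjusted p = 0.00269) and the urea transporter gene Slc14a1 (-0.75 ± 0.26, adjusted p = 0.0484). The P10 values of Slc14a1 lay under percentile 30 of all values (5.68), so the size of its difference is uncertain. Centring on the hepatocyte list gave 13 higher and 9 lower at P5 against E15.5, and 18 and 0 at P10 against P5. Of 19938 genes it called 16054 in the first comparison (10.3% of them higher) and 15006 in the second (97.8% higher).

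**Figure D4:**
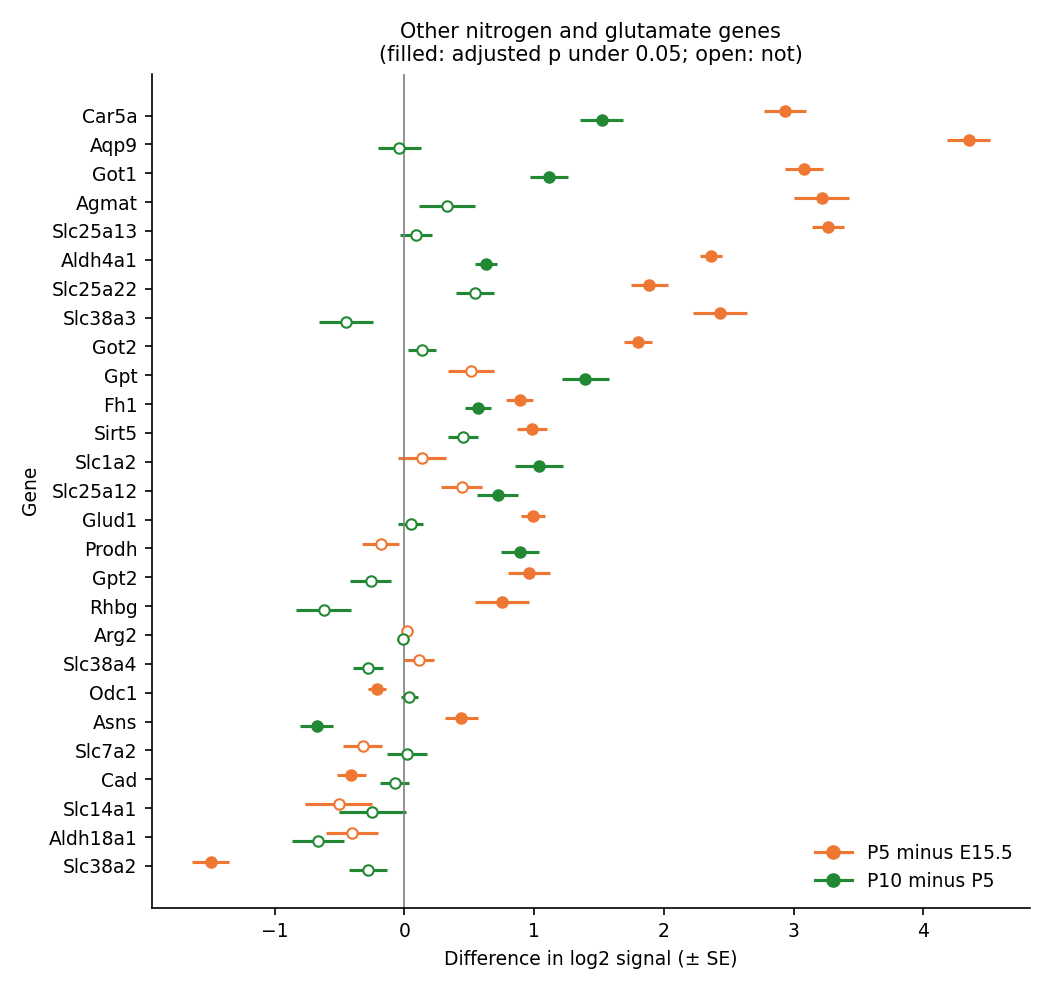
Difference in log2 signal (x axis) for P5 minus E15.5 and P10 minus P5 in 27 other genes of nitrogen and glutamate metabolism (y axis), filled where the adjusted p was under 0.05. Car5a shows filled points to the right of 0 in both intervals, and Slc38a2 lies at -1.49 in the first.

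Of 12 measured regulators of urea cycle genes, 9 rose and 1 fell at P5 against E15.5 (median 1.40). Cebpa, a factor needed for normal expression of the cycle genes in mice, had 8.93, 8.83 and 8.79 on the E15.5 arrays, 10.95, 11.09 and 10.97 on the P5 arrays and 10.93, 10.99 and 10.87 on the P10 arrays. The postnatal stages overlapped each other and lay above E15.5. Cebpa rose at P5 (2.15 ± 0.066, adjusted p = 1.32e-07) and did not pass between P10 and P5 (-0.07 ± 0.066, adjusted p = 0.665). The fatty acid sensor gene Ppara (3.46 ± 0.10, adjusted p = 1.21e-07) and Klf15, a regulator of amino acid breakdown (1.74 ± 0.091, adjusted p = 2.07e-06), also rose at P5. At P10 against P5, 4 rose and 1 fell (median 0.38). Centring on the hepatocyte list made these counts 9 and 1, where 97.8% of 15006 calls among all genes were higher. Those that rose without it included Klf15 (0.80 ± 0.091, adjusted p = 0.00258), Foxo1, which mediates insulin's effects on hepatocyte genes (0.55 ± 0.086, adjusted p = 0.00981), and the liver factor gene Foxa2 (0.42 ± 0.089, adjusted p = 0.0317). The insulin receptor gene Insr fell at P5 (-0.84 ± 0.13, adjusted p = 0.00114) and again at P10 (-0.82 ± 0.13, adjusted p = 0.0108). At P10 against E15.5, 10 rose and 1 fell (median 1.51).

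For each member the genes of most similar course were found by the root mean square difference of log2 signals over 9 arrays, each gene centred on its own mean. Asl and Nags were each other's nearest (0.10). Otc was closest to Pxmp2, of the peroxisomal membrane (0.077), and to Hgd, a step of tyrosine breakdown (0.090). Arg1 was closest to Sult1c2 (0.19) and to Hpd, another step of that route (0.19), and Cps1 to Arg1 (0.45). Slc25a15 was closest to Mrap (0.14) and to the cystathionine lyase gene Cth (0.16), and Glul to Ppa2 (0.081) and Nudt19 (0.097). For Oat the nearest were Acmsd, of tryptophan breakdown, and Pde7b, both at 0.40.

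The remaining cell type lists gave these counts beside the members. Of 6 measured cholangiocyte genes 4 rose at P5, 2 rose at P10 against E15.5 and 3 fell at P10 against P5. Of 6 erythroid genes 3 fell at P5, 1 rose and 4 fell at P10 against E15.5, and 1 rose at P10 against P5. Of 9 macrophage genes 1 rose and 1 fell at P5, and 1 fell at P10 against E15.5, with 0 called at P10 against P5 in limma (0 at an unadjusted p under 0.05). Of 9 sinusoidal endothelial genes 2 rose at P5 and 0 were called in the other comparisons in limma (0 at P10 against E15.5 and 2 at P10 against P5 at an unadjusted p under 0.05). At P10 against E15.5, 5 hepatocyte genes rose and 3 fell (3 and 6 under quantile normalisation), and 11 of 12 stellate genes fell. At P10 against P5, 3 stellate genes fell (median -0.28, but 0.13 after centring on the hepatocyte list). The part of these lists in the results above was not tested.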

How the data were processed

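RNA of 9 sorted liver cell samples was measured on Affymetrix arrays, 1 array each. The deposited values are log2 signals that the authors made with RMA. The submitters' processing notes name RMA, Affymetrix Expression Console and version 2.0 of Transcriptome Analysis Console, and no source used here gives a genome build. Of 35556 probe sets, 21789 have 1 symbol, 1621 several and 12146 none. Symbols of 21698 were looked up by Entrez identifier, and no filter on low values was set. limma 3.58.1 (R 4.3.3) was fitted to 19938 genes on all 9 arrays with a term for stage, with 2-sided p-values and Benjamini-Hochberg adjustment across the table, after a test on simulated data. Errors of differences are SE, and the number of arrays limits the precision. Samples sharing a replicate number did not deviate together (r of residuals -0.080 to 0.069, 0 of 9 pairs over 0.1), so they were not paired. Members and gene lists were chosen with earlier results of these data known. All measured members are named. Of each list at most 4 called genes of smallest adjusted p per comparison, called genes moving against the list, and genes on the route of nitrogen are named. Exceptions to this rule are hepatocyte genes picked by signal level, the Wnt targets Axin2, Sp5, Lgr5 and Rnf43, and the pathway genes Tcf7l2 and Ctnnb1. The picks by signal level and those of Sp5, Lgr5 and Rnf43 were made with the values seen. Eif2s3y, Xist and Ptprc were added as checks. Alternatives were quantile normalisation, 3 centrings, a floor and a filter at percentile 30, the mean of probe sets, an intensity trend with a robust prior, fits of 2 stages, a replicate block and leaving out each array. Those that left out pairs of arrays or used the other Glul probe set were chosen after seeing the data.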

Additional observations from a re-analysis of the deposited data

How the results depend on the processing

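In the alternatives run, 8 genes were higher at P10 than at E15.5 and 8 differed among the stages. At P5 against E15.5, 7 were higher, or 8 without P5 arrays 2 and 3, and the count that fell was 0 to 1 with an array left out. At P10 against P5 the count that rose was 3 to 7 with an array left out (3 without P10 array 2 or 3) and 3 without P5 arrays 2 and 3. With the replicate block the counts were 7, 8 and 6, and the block changed no call of a member. At P10 against P5 Nags was called in 11 of 21 alternatives. Beside the losses with 1 array left out, it lost its call under quantile normalisation, a floor, the intensity trend, the fit of those stages alone and without E15.5 array 3 and P5 array 1 (adjusted p = 0.0536 to 0.0776), and without P5 arrays 2 and 3 (0.169), as did Arg1 (0.119) and Slc25a15 (0.153). Oat at P5 against E15.5 turned positive, at 0.0023 after ribosomal centring, 0.0089 without E15.5 array 3, 0.17 without P5 array 2, 0.085 without P5 array 3 and 0.71 without P5 arrays 2 and 3, and with 1 array left out ranged from -0.45 to 0.17. Without P5 arrays 2 and 3 Glul at P10 against P5 became -0.052.

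With an array left out, the pericentral median was 0.82 to 1.16 at P5 against E15.5 and 1.01 to 1.35 at P10 against P5, and the periportal median at P10 against E15.5 was 2.98 to 3.17. Quantile normalisation gave 0.80 for the pericentral pair at P5, and 1.89 for it and 2.91 for the periportal genes at P10 against E15.5. Hepatocyte centring gave periportal medians of 1.95 at P5 and 1.00 at P10 against P5, and pericentral ones of 0.54 and 1.56; it moves every gene by the same amount, and the median of all genes went to -0.47 and 0.42. Without E15.5 array 3 and P5 array 1 the pericentral medians were 0.81 and 1.35 and the periportal median at P10 against E15.5 was 2.98, and without P5 arrays 2 and 3 the pericentral ones were 1.46 and 0.72. The cause of these shifts was not tested. Of all genes, 7089 were called at P5 against E15.5 (16054 with hepatocyte centring) and 1126 at P10 against P5 (15006 with hepatocyte centring, 604 with a floor, 709 in the fit of those stages, 703 without E15.5 array 3 and P5 array 1, 586 to 1385 with an array left out). The share of calls that were higher was 50.2% at P5 against E15.5, 51.8% for P10 against the fetal stage and 48.8% for P10 against P5. It was 10.3%, 45% and 97.8% with hepatocyte centring, and 65.6% and 63.5% in the last 2 with centring on all genes.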
